A study of Mus musculus with 26 samples.

Results

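The B56, PR72 and striatin subunits of protein phosphatase 2A (PP2A) were followed in the left ventricle of mice that lack a different regulatory subunit of the same enzyme, B55α, in heart muscle cells. The 10 genes were chosen by name: Ppp2r5a, Ppp2r5b, Ppp2r5c, Ppp2r5d and Ppp2r5e of the B56 family, Ppp2r3a and Ppp2r3c of the PR72 family, and Strn, Strn3 and Strn4 of the striatin family. All 10 were among the 56941 genes counted, and all 10 passed the filter on low counts that left 15357 genes for testing.

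PP2A is built from a scaffold subunit, a catalytic subunit and an exchangeable regulatory subunit, and the regulatory subunit decides which proteins the enzyme meets and where in the cell. B56 subunits read a short linear motif in their partners, PR72 subunits carry calcium-binding EF-hands, and striatins are the centre of the STRIPAK complex, in which PP2A is held beside germinal centre kinases that it keeps dephosphorylated. In heart muscle, B56α is anchored by ankyrin-B, and the long product of Ppp2r3a, PR130, has been found with the ryanodine receptor. The regulatory subunits share a common pool of scaffold and catalytic subunits, so the loss of B55α raises the question of whether the transcripts of the other families move.

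The knockout mice (cKO) had the genotype aMHC-CreTg/0-Ppp2r2aL/L and the control mice (Ctrl) aMHC-Cre0/0-Ppp2r2aL/L. Both therefore carried floxed Ppp2r2a alleles, and the groups differed in the Cre transgene as well as in Ppp2r2a, since no mice with Cre and unfloxed alleles were analysed here. The labels give the strain as C57BL/6N and the design text gives a mixed background of C57BL6/N and FVB. There were 6 control males, 7 knockout males, 6 control females and 7 knockout females, aged 12 to 16 weeks, all of which had received saline from an osmotic minipump for 2 weeks. The αMHC promoter drives Cre in cardiomyocytes, so the other cells of the ventricle keep Ppp2r2a. Each library was poly-A RNA from whole left ventricle, and the libraries held 14403102 to 30867399 gene counts each. In such bulk tissue, fewer cells of a type and less RNA per cell cannot be told apart.

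Ppp2r2a, which encodes B55α, was first read in every library as a check of the labels. Levels are given as CPM, the counts of a gene scaled to a common library size with TMM factors. Ppp2r2a lay between 24.1 and 47.7 CPM in control males with a median of 42.2, and between 11.8 and 16.2 with a median of 13.95 in knockout males. It lay between 36.2 and 46.7 CPM with a median of 40.2 in control females, and between 9.96 and 16.2 with a median of 13.7 in knockout females. No knockout library reached the lowest control library of its sex, although control males 3 and 6 were low for their group. The control female numbered 2 stood apart for Strn and the knockout female numbered 2, the library with the fewest counts, for Strn3. The latter was also the lowest of its group for Ppp2r5c and Ppp2r5e. Values of Strn, Strn3, Ppp2r3c, Ppp2r5c and Ppp2r5e that rest on these libraries are given without them as well. Cardiomyocyte markers (Myh6, Tnnt2, Tnni3, Actn2, Myl2 and Ryr2) summed to 42472 to 59966 CPM per library. Of the 4 atrial markers, Sln and Myl7 had at most 3 counts in any library and Myl4 at most 49, but Nppa reached 17575. The sum of these 4 was nearly all Nppa, at a mean of 389.6 CPM against 1.48 for Myl4, so it reads as Nppa. It was 87.4 to 423.7 CPM in control males and 125.3 to 737.6 in knockout males. In females it was 178.7 to 509.3 CPM in controls and 325.1 to 856.2 in knockouts. The 4 lymphocyte markers together reached at most 2.62 CPM.

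Levels of different genes can be set side by side only per length, so the CPM of each gene was divided by the length in kilobases of its longest protein-coding transcript. On this scale, over all 26 mice, Ppp2r3a was the highest of the 10 genes with a mean of 41.8 ± 4.72 CPM per kilobase (SD, n = 26), followed by Ppp2r5a at 36.1 ± 2.42. Strn3 had 27.6 ± 2.11 and Ppp2r5c 27.0 ± 1.61, and these neighbours were not separated, since Strn3 was the higher of the pair in 16 of 26 libraries. Strn4 came next at 22.9 ± 0.883, above Ppp2r5b at 14.6 ± 0.913 and Ppp2r5d at 13.6 ± 0.776. Ppp2r5e had 7.55 ± 0.459, and the lowest were Ppp2r3c at 4.39 ± 0.373 and Strn at 3.999 ± 0.687, of which Ppp2r3c was the higher in 19 of 26 libraries. The highest mean was 10.5 times the lowest. Ppp2r3a exceeded Ppp2r5a in 22 of 26 libraries and Ppp2r5b exceeded Ppp2r5d in 20 of 26, whereas Ppp2r5a over Strn3, Ppp2r5c over Strn4, Strn4 over Ppp2r5b and Ppp2r5d over Ppp2r5e held in all 26. The order rests on the transcript length used: with the merged length of all annotated exons Ppp2r3a was still first, at 22.8, but Ppp2r5a fell to 11.6, below Ppp2r5c at 13.4, Strn3 at 12.7, Ppp2r5d at 12.1 and Ppp2r5b at 11.8.

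**Figure D1:**
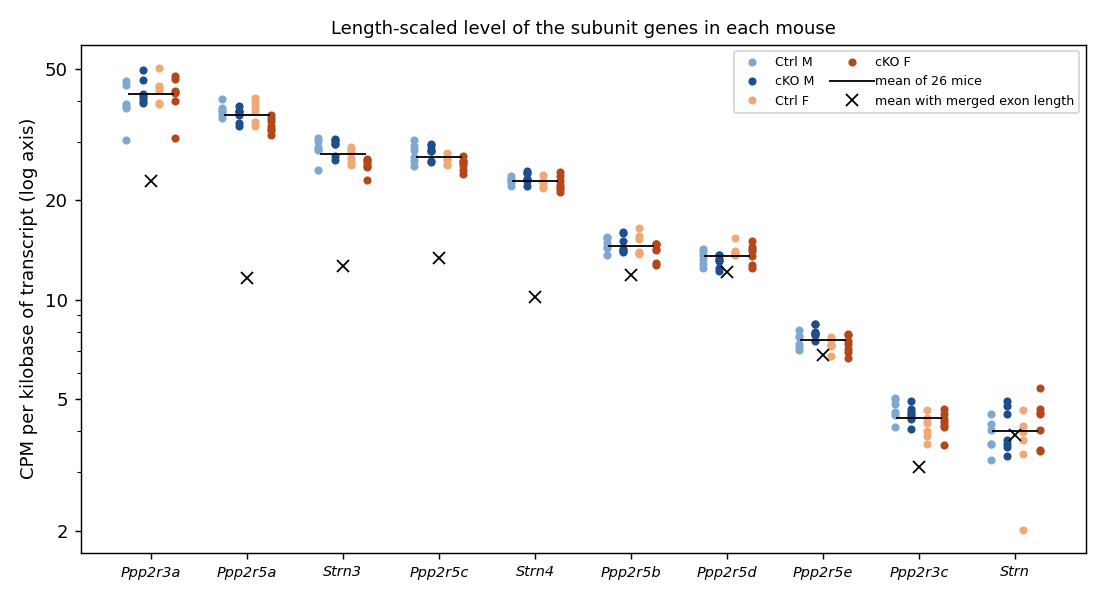
Length-scaled level (CPM per kilobase of the longest protein-coding transcript) of the 10 subunit genes in each of the 26 libraries, by group. Ppp2r3a and Ppp2r5a are highest and Ppp2r3c and Strn lowest on this length, and crosses mark the mean with merged exon length.

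Ppp2r2a stood within the range of the 10 genes in control hearts. Its mean of 9.32 ± 2.53 CPM per kilobase in control males and 10.1 ± 0.897 in control females (n = 6 each) was above Ppp2r5e (7.53 and 7.33), Ppp2r3c (4.68 and 4.13) and Strn (3.89 and 3.66) and below the other 7. Summed over the family, the B56 genes had 100.9 ± 2.94 CPM per kilobase in control males (n = 6) and 100.05 ± 2.89 in control females (n = 6), and the striatin genes 55.4 ± 2.62 and 53.6 ± 1.94. In the knockout libraries the B56 sum was 100.2 ± 2.99 in males and 94.7 ± 2.97 in females (n = 7 each), and the striatin sum 56.7 ± 1.98 and 52.4 ± 2.02, while Ppp2r2a was at 3.53 ± 0.450 and 3.35 ± 0.517. The B56 sum of the knockout females, 89.7 to 97.4, overlapped that of the control females, 96.8 to 104.4. Within the B56 family of control males, Ppp2r5a made up 37.2% ± 1.42 of the sum, Ppp2r5c 27.5% ± 1.33, Ppp2r5b 14.6% ± 0.542, Ppp2r5d 13.3% ± 0.871 and Ppp2r5e 7.46% ± 0.257 (n = 6). Within the striatins of control males, Strn3 made up 51.6% ± 1.80, Strn4 41.4% ± 1.97 and Strn 7.005% ± 0.628. These sums and shares also rest on the length used: with merged exon lengths the B56 sum was 56.5 ± 1.54 and the striatin sum 27.1 ± 1.36 in control males. The shares over all 26 mice were then 20.8% for Ppp2r5a, below Ppp2r5c at 24.0%, Ppp2r5d at 21.8% and Ppp2r5b at 21.2%, and Strn had 14.6%. With the longest transcripts the Strn3 share was 48.8% ± 0.845 in knockout females (n = 7), 51.0% ± 1.47 in control females (n = 6) and 51.4% ± 1.58 in knockout males (n = 7).

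Knockout and control libraries were then compared gene by gene with edgeR's quasi-likelihood test over all 15357 genes, with p-values adjusted over that whole table by the Benjamini-Hochberg method and called below 0.05. None of the 10 genes was called in males, in females or as the average of both sexes, against 0.443% of all genes called in males, 0.0326% in females and 1.33% for the average. At an unadjusted p under 0.05 the count of the 10 was 0 in males, 1 in females and 1 for the average (Ppp2r5a in both), against 13.2%, 5.15% and 14.1% of all genes. DESeq2's Wald test and limma's voom also called 0 of the 10 in these 3 comparisons. The median log2 fold change of the 10 was 0.02 in males, -0.04 in females and -0.01 averaged, beside 0.0010, 0.0028 and 0.0042 over all genes. Their median absolute log2 fold change was 0.043 in males and 0.051 in females, beside 0.096 and 0.074 over all genes. That comparison is not matched for level, and genes of low level vary more. The median SD of log2 CPM within groups was 0.19 over all genes. It was 0.10 to 0.14 among the 500 genes nearest in level to each of the 10. The knockout and control groups overlapped for all 10 genes in both sexes, and 1.28% of all genes had no overlap in males and 0.169% in females.

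Leaving Strn aside, the outermost limits of the 95% intervals of the other 9 genes ran from -12.1% to 23.1% in males, from -15.3% to 12.7% in females and from -10.7% to 11.6% for the average.

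**Figure D2:**
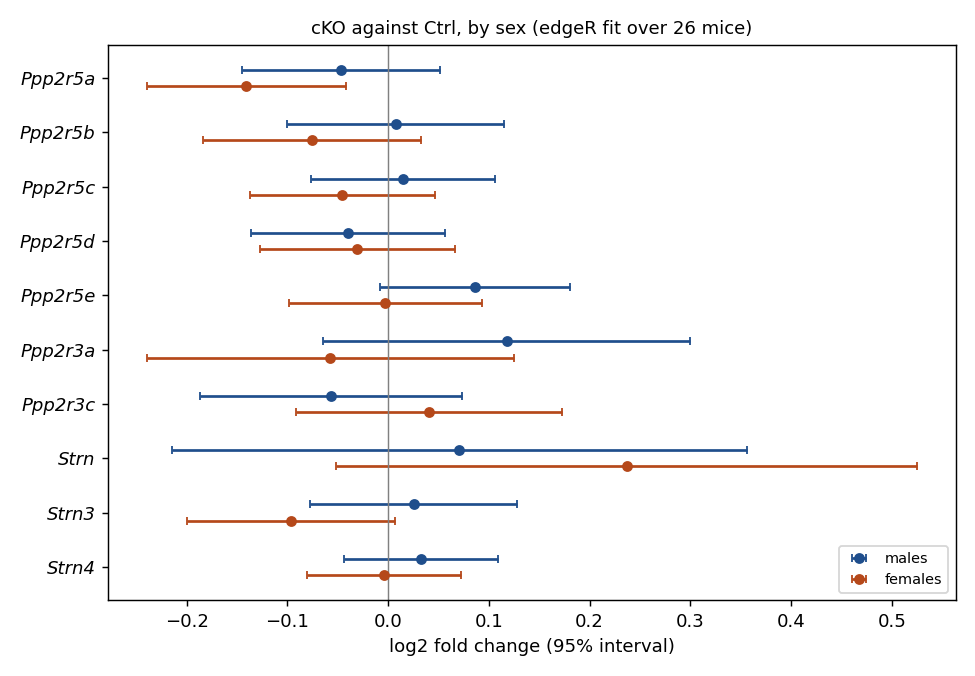
Log2 fold change of knockout against control for each gene, in males and females separately, with 95% intervals from the edgeR fit over 26 mice. All intervals except that of Ppp2r5a in females include 0, and the widest are those of Strn.

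Among the B56 genes, Ppp2r5a encodes B56α, the subunit tied to ankyrin-B. Its level lay between 103.8 and 125.8 CPM with a median of 116.7 in control females, and between 97.3 and 112.0 with a median of 103.9 in knockout females. In males it lay between 109.4 and 124.8 CPM with a median of 115.1 in controls, and between 103.8 and 119.1 with a median of 114.5 in knockouts. All 7 knockout females were below the control female mean and 3 of 7 were below the lowest control female. In males 6 of 7 knockouts were below the control mean and 2 of 7 were below the lowest control, and the groups overlapped in both sexes. The log2 fold change was -0.14 (SE 0.05) in females and -0.05 (SE 0.05) in males. With edgeR the female change ranked 126 of 15357 by p and had an adjusted p of 0.825, and the average over the sexes was -0.09 with an adjusted p of 0.170. The difference between the sexes was -0.09 with an adjusted p of 0.999, so the female value was not shown to differ from the male one.

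Ppp2r5e encodes B56ε, the least abundant of the family here. It ranged from 33.9 to 38.9 CPM with a median of 36.2 in control males and from 35.9 to 40.7 with a median of 38.2 in knockout males. In 6 of 7 knockout males it was above the control mean, and the groups overlapped. The log2 fold change was 0.09 (SE 0.05) with an adjusted p of 0.431 by edgeR, the smallest of the 10 genes in males. In females it was -0.0027 (SE 0.05). The remaining B56 genes showed less: Ppp2r5b (B56β) had 0.0076 in males and -0.08 in females, Ppp2r5c (B56γ, for which growth-regulatory targets are known) 0.02 and -0.05, and Ppp2r5d (B56δ) -0.04 and -0.03, all with adjusted p-values of 0.782 or more by edgeR. Ppp2r5b and Ppp2r5c reversed in males, to -0.02 and -0.0031, when counts were corrected for transcript length and GC content.

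In the PR72 family, Ppp2r3a was the gene with the widest range in absolute terms. It lay between 206.1 and 310.4 CPM with a median of 263.7 in control males and between 266.6 and 336.4 with a median of 280.2 in knockout males. In females it lay between 266.0 and 341.4 CPM with a median of 296.1 in controls and between 208.9 and 322.3 with a median of 289.2 in knockouts. The groups overlapped in both sexes, with 6 of 7 knockout males above the control male mean and 5 of 7 knockout females below the control female mean. The log2 fold change was 0.12 (SE 0.09) in males and -0.06 (SE 0.09) in females, with adjusted p-values of 0.615 and 0.987 by edgeR. Ppp2r3c encodes G5PR, a smaller relative also found with the catalytic subunit of PP5. It lay between 15.3 and 21.3 CPM over all libraries, and its log2 fold change was -0.06 (SE 0.06) in males and 0.04 (SE 0.06) in females.

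Counts were made per gene, and Ppp2r3a has more than 1 start site. Its long product PR130 and its short product PR72 are made from different first exons, so a shift between them would not be seen in these values. Of the 10 genes, 9 had at least 1 start site in the RefSeq promoter table for GRCm38.p6, with 12 windows in all, each of 250 bases upstream of a start. The count files were made on GRCm39, and these coordinates apply to GRCm38.p6 alone. The windows of the distal and the proximal Ppp2r3a start are shown because they belong to the 2 forms that the counts merge, and that of Strn3 because it was the gene of the 10 with a called difference, described below. Each is written 5′ to 3′ on the strand of the gene, which is minus for all 3, with CG dinucleotides in capitals. The distal start is at chr9:101251833-101252082, the proximal start at chr9:101199074-101199323, and the Strn3 start at chr12:51691915-51692164.
Ppp2r3a distal: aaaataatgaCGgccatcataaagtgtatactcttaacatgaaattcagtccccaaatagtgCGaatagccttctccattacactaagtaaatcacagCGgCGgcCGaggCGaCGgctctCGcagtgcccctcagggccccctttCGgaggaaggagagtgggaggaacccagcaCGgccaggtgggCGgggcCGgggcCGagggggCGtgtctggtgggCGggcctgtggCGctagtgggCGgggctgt
Ppp2r3a proximal: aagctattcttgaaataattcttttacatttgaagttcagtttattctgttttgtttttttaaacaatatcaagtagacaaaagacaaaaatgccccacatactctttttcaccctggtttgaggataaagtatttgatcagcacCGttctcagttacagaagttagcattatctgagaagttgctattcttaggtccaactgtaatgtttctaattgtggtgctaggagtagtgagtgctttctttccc
Strn3: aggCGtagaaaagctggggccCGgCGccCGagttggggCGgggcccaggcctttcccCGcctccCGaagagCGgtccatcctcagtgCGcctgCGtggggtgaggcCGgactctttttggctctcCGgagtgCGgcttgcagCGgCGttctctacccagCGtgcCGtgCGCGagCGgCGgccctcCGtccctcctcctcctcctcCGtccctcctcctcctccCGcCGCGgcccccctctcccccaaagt

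The distal Ppp2r3a window held 17 CG dinucleotides and 3 copies of the GC box GGGCGG on either strand, at a GC content of 60.4%. The proximal window held 1 CG dinucleotide and no GC box at a GC content of 34.0%, and in GENCODE M21 it overlaps an exon of another transcript of the same gene. The Strn3 window held 26 CG dinucleotides and 1 GC box at a GC content of 72.0%. The median over all 32851 windows of this length was 6 CG dinucleotides, and 32.7% of windows held a GC box. The 12 windows ranged from 0 to 31 CG dinucleotides, with the 0 at Strn4 and the 31 at a Ppp2r5c start. None of the 12 held the TATA box TATAAA, the E-box CACGTG, the nuclear receptor half-site AGGTCA or the MEF2 consensus, searched on both strands. These occur in 12.4%, 6.02%, 14.02% and 2.92% of all windows, respectively.

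Among the striatins, Strn encodes striatin itself, a calmodulin-binding scaffold found at intercalated discs. It lay between 17.4 and 40.1 CPM with a median of 33.3 in control females and between 30.1 and 46.7 with a median of 38.9 in knockout females. In males it lay between 28.2 and 39.0 CPM with a median of 33.2 in controls and between 29.0 and 42.4 with a median of 32.4 in knockouts. The lowest value of the 26 was that of control female 2, and the groups overlapped in both sexes. The log2 fold change in females was 0.24 (SE 0.14, 95% interval -0.05 to 0.52, edgeR adjusted p 0.956), and it was 0.11 without control female 2. In males it was 0.07 (SE 0.14), and it turned to -0.0039 when corrected for length and GC content.

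Strn4 encodes zinedin, and it was the steadiest of the set. It lay between 78.2 and 83.5 CPM in control males, 78.2 and 86.6 in knockout males, 77.0 and 84.4 in control females and 74.9 and 85.9 in knockout females. Its log2 fold change was 0.03 (SE 0.04) in males and -0.0039 (SE 0.04) in females, and the male value turned to -0.01 under the length and GC correction. Strn3, which encodes SG2NA, had 0.03 (SE 0.05) in males and -0.10 (SE 0.05) in females, with adjusted p-values of 0.885 and 0.948 by edgeR.

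**Figure D3:**
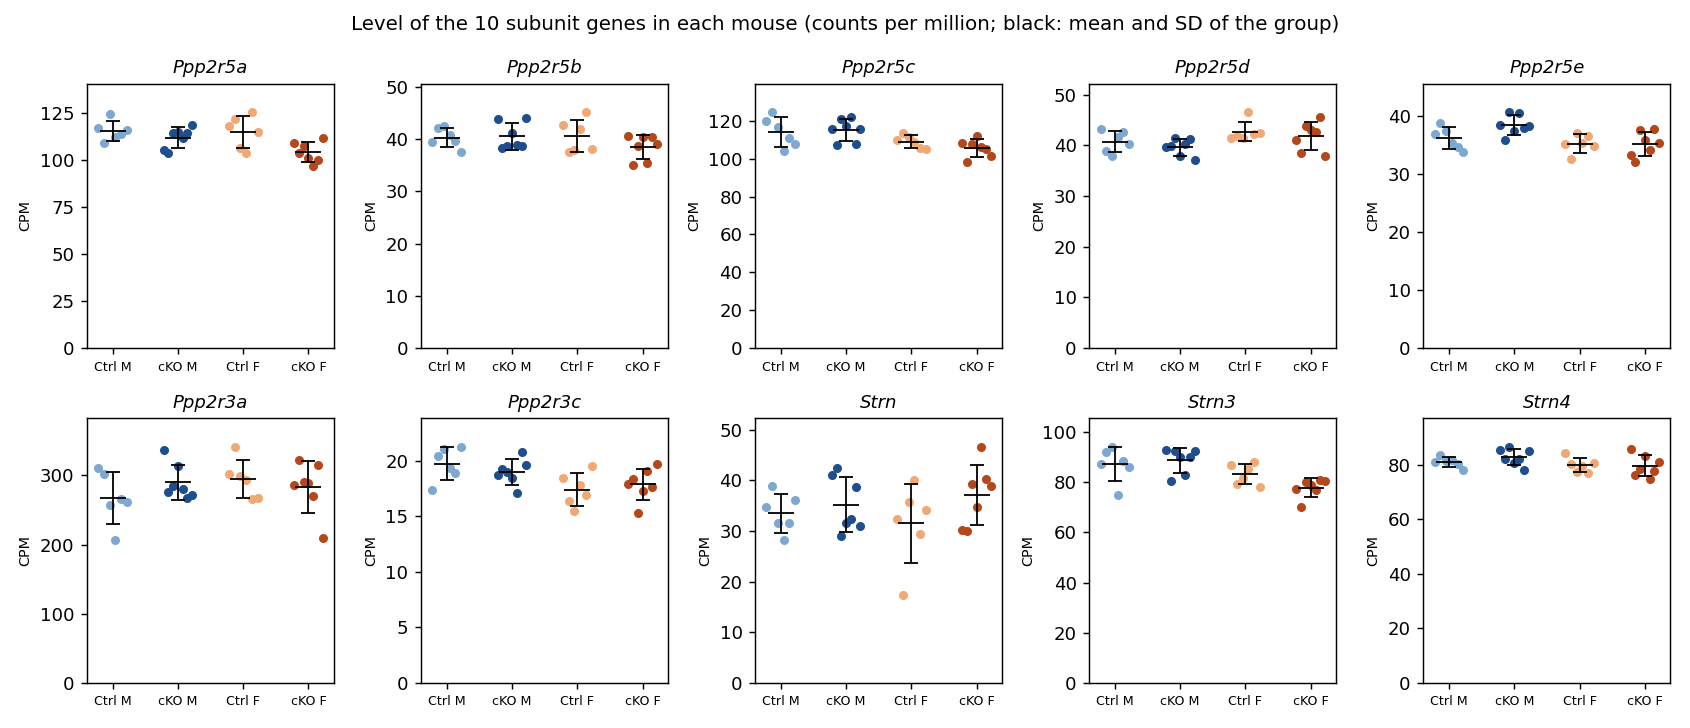
CPM of each of the 10 genes in every library, by group, with the group mean. The knockout and control points overlap for all 10 genes, control female 2 is the low point of Strn and knockout female 2 the low point of Strn3.

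The study's labels set males beside females, and the difference of the knockout effect between the sexes was tested as an interaction. None of the 10 genes was called, and none of the 15357 was (0%). At an unadjusted p under 0.05 there were 0 of the 10 by edgeR, against 3.96% of all genes, and DESeq2's Wald test and limma's voom also called 0 of all genes. Strn3 had the smallest p of the 10, with a difference of -0.12 (SE 0.07, edgeR adjusted p 0.999). The knockout effect was lower in females than in males for 7 of the 10 genes, with a median difference of -0.07 beside 0.0052 over all genes, and the male and female effects share no libraries.

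Males and females were also compared within each genotype. In controls none of the 10 was called different between the sexes by edgeR, DESeq2 or limma's voom, against 0.638% of all genes called by edgeR. At an unadjusted p under 0.05 there was 1 of the 10, against 12.1% of all genes. This was Ppp2r3c, which lay between 17.4 and 21.3 CPM with a median of 19.9 in control males and between 15.4 and 19.5 with a median of 17.4 in control females. All 6 control females were below the male mean and 3 were below the lowest male, but the ranges overlapped. The log2 difference of females from males was -0.18 (SE 0.07) with an adjusted p of 0.235 by edgeR. Control males 3 and 6 were the highest of the group, and without them the difference was -0.13 with an adjusted p of 0.600 by edgeR. In knockouts it was -0.08 (SE 0.06).

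In knockouts 1 of the 10 differed by sex, Strn3, against 2.7% of all genes called and 1.27% called lower in females. Strn3 lay between 80.4 and 93.0 CPM with a median of 90.2 in knockout males and between 70.0 and 81.1 with a median of 79.1 in knockout females. All 7 knockout females were below the male mean and 5 were below the lowest male, so the groups overlapped only through knockout male 2 at 80.4. In controls Strn3 lay between 74.9 and 94.2 CPM with a median of 87.8 in males and between 77.9 and 88.1 with a median of 83.6 in females, and these groups overlapped fully. The log2 difference of females from males in knockouts was -0.19 (SE 0.05, 95% interval -0.29 to -0.09), or -12.2%, with an adjusted p of 0.0334 by edgeR, rank 269 of 15357. In controls it was -0.07 (SE 0.05, adjusted p 0.673 by edgeR), and the interaction above does not show that these differences differ.

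The Strn3 call was near the threshold. It was kept with DESeq2's Wald test (adjusted p 0.00928), limma's voom (0.0269), DESeq2's size factors in edgeR (0.0309) and the knockout groups fitted alone (0.0393). It was lost with no filter on low counts (log2 difference -0.20, adjusted p 0.0517), with the length and GC correction (-0.18, adjusted p 0.0685), and without both females numbered 2 (log2 difference -0.16, adjusted p 0.0615). It was also lost in 8 of the 26 fits that each left out 1 library, namely knockout males 1, 3, 4, 6 and 7 and knockout females 2, 4 and 5, with adjusted p-values up to 0.0721 and log2 differences from -0.21 to -0.16 over all 26. Beside it, the cardiomyocyte marker sum was 42472 to 51155 CPM in knockout males and 47625 to 57287 in knockout females, and 2 of its 6 genes were called higher in females, Tnni3 by 0.24 and Myl2 by 0.26 on the log2 scale. Of the other 4, Myh6 (0.14), Tnnt2 (0.16) and Actn2 (0.02) had positive values and Ryr2 a negative one (-0.18). The fibroblast sum was 821.0 to 1094 CPM in knockout males and 717.6 to 942.2 in knockout females, and Col1a2 was 1 of 6 called, at -0.40. Col1a1 (-0.40) and Dcn (-0.18) had negative values too, while Lum (0.26), Pdgfra (0.08) and Tcf21 (0.08) had positive ones. The part of these markers in the Strn3 value was not tested.

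The other genes were not called between knockout sexes, but 4 of the 10 had an unadjusted p under 0.05 by edgeR, against 17.3% of all genes in either direction. All 4 were lower in females, as were 1252 of the 15357 genes at that p. The 4 were Strn3, Ppp2r5c, Ppp2r5e and Ppp2r5a. Ppp2r5c lay between 107.3 and 121.8 CPM in knockout males and between 98.3 and 112.1 in knockout females, with a log2 difference of -0.13 (SE 0.04, edgeR adjusted p 0.109). Ppp2r5e lay between 35.9 and 40.7 in knockout males and between 32.1 and 37.7 in knockout females, with -0.13 (SE 0.04, edgeR adjusted p 0.115). Ppp2r5a had -0.10 (SE 0.05, edgeR adjusted p 0.257). Knockout female 2 was the lowest knockout female for Strn3, Ppp2r5c and Ppp2r5e, so these values share a low library. Without it the log2 difference was -0.16 for Strn3, -0.11 for Ppp2r5c and -0.11 for Ppp2r5e. For each of these genes that was the smallest difference of the 26 fits that each left out a library. For each of the 4, which were picked by p in this same comparison, all 7 knockout females were below the knockout male mean. The median of the 10 was -0.08 in knockouts and -0.03 in controls, beside 0.0067 and 0.0039 over all genes.

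**Figure D4:**
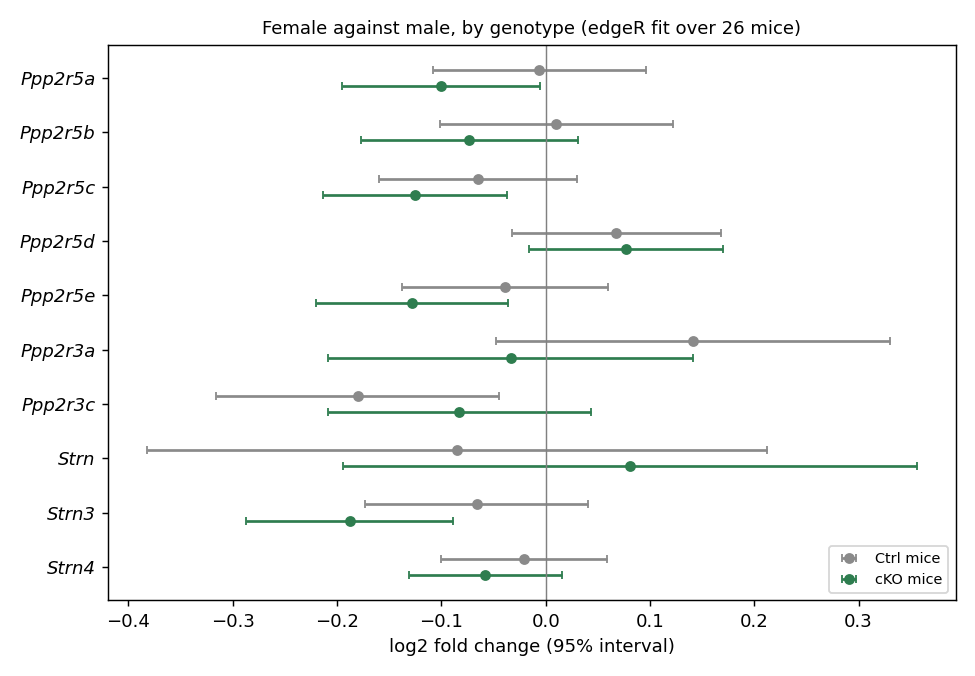
Log2 difference of females from males for each gene, in controls and in knockouts, with 95% intervals from the edgeR fit. Strn3 in knockouts, at -0.19, is the value called, and the intervals of Ppp2r3c in controls and of Ppp2r5a, Ppp2r5c and Ppp2r5e in knockouts also leave out 0.

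The genes that work with these subunits were read from 4 lists. Of 9 other PP2A subunits 7 were tested, with Ppp2r2b and Ppp2r2c below the filter, and Ppp2r2a was the only one called, with a log2 fold change of -1.40 in males and -1.58 in females. The scaffold gene Ppp2r1a had -0.08 (SE 0.03) averaged over the sexes, with an adjusted p of 0.155 by edgeR. The catalytic genes Ppp2ca and Ppp2cb had -0.04 and 0.06. Of 13 other STRIPAK components 12 were tested, among them the kinase gene Stk24 and the membrane anchor gene Slmap, and none was called in any comparison. Their median between knockout females and males was -0.08.

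Of 16 MAP4K and Hippo pathway genes, all tested, none was called for the knockout in either sex. Between the sexes 1 was called in controls and 1 in knockouts, against 0.638% and 2.7% of all genes. Stk4, which encodes MST1, a Hippo kinase that STRIPAK-bound PP2A acts on, lay between 18.8 and 21.9 CPM in knockout males and between 15.3 and 20.5 in knockout females. The log2 difference was -0.21 (SE 0.06, edgeR adjusted p 0.0370), in the same comparison as Strn3, and in controls it was -0.07 with an adjusted p of 0.716 by edgeR. Map4k2, which encodes a germinal centre kinase, lay between 53.3 and 61.5 CPM in control males and between 63.1 and 80.1 in control females, with no overlap, as for 1.02% of all genes. Its log2 difference was 0.33 (SE 0.07, edgeR adjusted p 0.0232) in controls and 0.19 (SE 0.07, edgeR adjusted p 0.112) in knockouts. The Stk4 and Map4k2 calls were not checked under the alternatives used for Strn3, nor with libraries left out. Over all genes, calls between control sexes fell from 98 to 40 without control males 3 and 6. Whether Map4k2 was still among them was not tested. Of 12 partners and anchors of B56, all tested, none was called. Akap6, the anchor of signalling enzymes at the nuclear envelope of cardiomyocytes, came nearest with -0.23 (SE 0.06, edgeR adjusted p 0.0522) between knockout females and males, and Ank2, which encodes ankyrin-B, had -0.05 (SE 0.07). In that comparison 4 of the 12 had an unadjusted p under 0.05 by edgeR, all lower in females. Against this stand 17.3% of all genes in either direction and 1252 of 15357 lower in females. The median of the 12 was -0.14.

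The 10 genes differed widely in how much mice of 1 group varied. The SD of log2 CPM within groups was 0.053 for Strn4, lower than in all but 0.221% of tested genes and all but 0.8% of the 500 genes nearest to it in mean level. For the 5 B56 genes it lay between 0.072 and 0.090, and 5.2% to 27% of their neighbours in level were steadier. Strn3 had 0.087 and Ppp2r3c 0.11. The exceptions were Ppp2r3a at 0.17 and Strn at 0.27, with 81.8% and 92.4% of their neighbours steadier. The striatin family therefore held both the steadiest and the most variable of the 10.

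**Figure D5:**
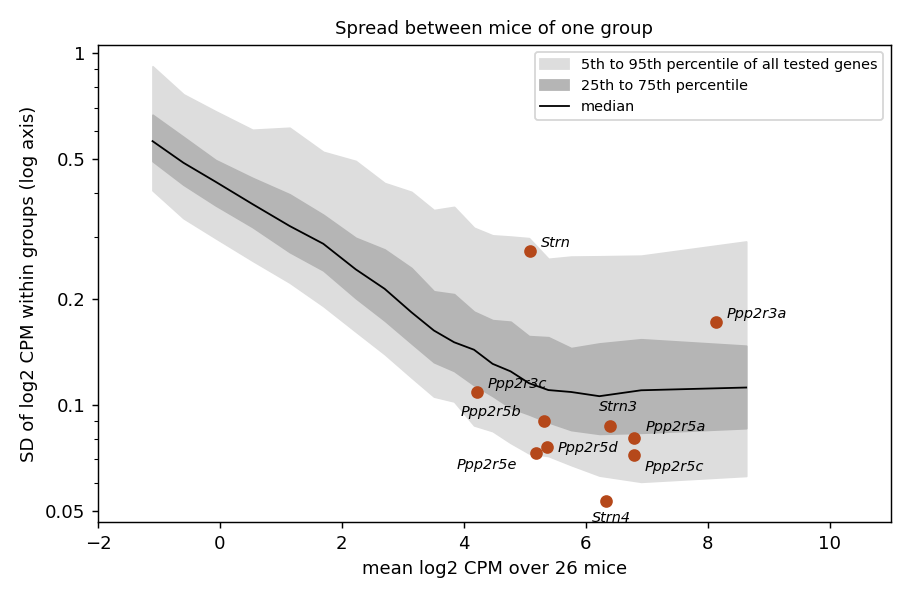
SD of log2 CPM within groups (log axis) against mean log2 CPM over 26 mice for the 10 genes, over bands for all tested genes. Strn4 at 0.053 lies below the 5th to 95th percentile band and Strn at 0.27 near its upper edge.

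Variation between mice of 1 group was then compared between the genes, as deviations of log2 CPM from the group mean over 26 mice. These correlations are descriptions: the values share libraries, depth and scaling. Of 45 pairs, 30 were positive and the median Pearson r was 0.087. There were 4 pairs above 0.5, and the share for pairs of other genes was not counted. Ppp2r5b and Strn3 had r = 0.61 (Spearman's rho 0.74), which was 0.52 without the 2 libraries farthest out in Ppp2r5b. Ppp2r5c and Ppp2r5e had 0.54, which was 0.48 without the 2 farthest libraries in Ppp2r5c and 0.60 without those in Ppp2r5e. Ppp2r5e and Strn3 had 0.53, which fell to 0.42 without the 2 farthest libraries in Ppp2r5e and 0.48 without those in Strn3. Ppp2r5c and Ppp2r3a had 0.53, which fell to 0.37 without the 2 farthest libraries in Ppp2r5c. In the other direction, Ppp2r5a and Strn had r = -0.59 (Spearman's rho -0.59), and r was -0.57 and -0.64 without the 2 libraries farthest out in either gene.

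The genes whose deviations were most like each of the 10 were found among the other 15356 tested genes, over the same 26 mice. Each value is picked as among the highest of 15356, and the height that such picked values reach without any link was not estimated. Ppp2r3a was followed most closely by Slc25a16 (r = 0.84), a mitochondrial carrier gene, Bche (0.82), which encodes butyrylcholinesterase, and Fgf13 (0.82), a fibroblast growth factor homologue that binds sodium channels. Strn was followed by Heatr5b (0.82), the kinesin gene Kif5c (0.81) and the receptor kinase inhibitor gene Spry2 (0.80). Strn3 was followed by Mapk9 (0.81), which encodes JNK2, Tmem135 (0.81) and the cargo receptor gene Lman1 (0.80). Strn4 was followed by 1700037H04Rik (0.69), Agap3 (0.69) and Srpr (0.68), at each rank the lowest value of the 10 genes.

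Among the B56 genes, Ppp2r5a was followed by Olfml2b (0.80), Gga1 (0.74) and Myo1e (0.69). Ppp2r5b was followed by Hspd1 (0.82), Twnk (0.81) and Iars (0.80), of which the first encodes the mitochondrial chaperonin HSP60 and the second the mitochondrial DNA helicase. Ppp2r5c was followed by Fam174b (0.82), the sodium channel gene Scn10a (0.80) and Farp2 (0.79). Ppp2r5d was followed by Slc2a8 (0.76), the clock gene Per3 (0.73) and Abcc1 (0.72), and Ppp2r5e by Dnajc16 (0.82), the nuclear receptor gene Esrrb (0.81) and Fam20b (0.81). For Ppp2r3c they were Olfml3 (0.78), Arl6ip1 (0.73) and Csnk2a2 (0.72), the last of which encodes a catalytic subunit of casein kinase II. No gene of the set was among the 3 closest to any other.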

How the data were processed

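Left ventricle RNA from 26 mice was sequenced by the authors as stranded poly-A libraries, per the labels' protocols. The deposited values are whole-number counts per gene; per the submitters' processing notes, FastQC 0.74, cutadapt 4.6, STAR 2.7.11a, HTSeq and GRCm39 were used, while the annotation release and strand setting of the counting are not given in the sources used here. Without a stated strand setting, reads of antisense neighbours (Mea1 for Ppp2r5d, 1110008L16Rik for Ppp2r3c, Gm37621 for Ppp2r3a, Gpha2 for Ppp2r5b) cannot be told apart. Libraries were taken as separate mice, as their replicate labels give them; if not, p-values measure only the spread between samples. Counts were fitted with edgeR 4.0.16 (R 4.3.3; filterByExpr with a minimum count of 10, TMM, 4 group means, robust quasi-likelihood fit of all 26 libraries), adjusted by Benjamini-Hochberg; log2 CPM used a prior count of 2. The test was also run on 1 set of simulated counts. The changes planted there were larger than any found for the 10 genes, so it does not check effects of their size. Lengths came from GENCODE M21 and promoter sequences from RefSeq (GRCm38.p6). Named were the 10 genes, Ppp2r2a, list and marker genes called in any comparison, the 3 genes most correlated with each, and, chosen after their values were seen, list genes such as Ppp2r1a and Akap6 that came nearest to a call or do a known part in the complex. Members and lists were chosen with earlier results of these data known. DESeq2 1.42.0, limma 3.58.1 voom, other filters, a length and GC correction, a replicate block, left-out libraries and merged exon lengths were tried as alternatives; the last and the fit without the females numbered 2 were chosen after seeing the data.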

Additional observations from a re-analysis of the deposited data

Results flagged for a closer look

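In each group of each of the 10 genes, 40 groups in all, the highest and the lowest library were compared with the rest by Dixon's criterion, which chance alone meets in about 1 in 20 groups. It was met 2 times. For Ppp2r5d, control female 4 was the highest of its group at 46.6 CPM, while the other 5 control females lay between 41.5 and 42.5. For Strn3, knockout female 2 was the lowest of its group at 70.0 CPM, while the other 6 knockout females lay between 76.7 and 81.1. The Strn3 difference between knockout sexes has an adjusted p of 0.0615 by edgeR without both females numbered 2.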

How the results depend on the processing

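Of 580 log2 values of the 10 genes under 10 alternatives, 555 kept their direction and side of the threshold, 21 changed sign and 4, all of Strn3 between knockout sexes, lost the call. The count of the 10 called between knockout sexes was 0 with no filter, with the length and GC correction, with that correction plus the replicate block, and without the females numbered 2, and 0 to 1 when each library was left out in turn. With the length and GC correction Ppp2r5b became -0.017, Ppp2r5c -0.0031, Strn -0.0039 and Strn4 -0.011 in males, Ppp2r3a -0.023 and Strn4 -0.023 averaged, Ppp2r5b -0.021 between control sexes and Ppp2r3a 0.033 between knockout sexes. Adding the replicate block to it gave -0.028 for Ppp2r5b and -0.015 for Strn4 in males, -0.027 for Strn4 averaged, -0.022 for Ppp2r5b between control sexes and 0.025 for Ppp2r3a between knockout sexes. The replicate block alone gave -0.0069 for Ppp2r5b in males. Voom gave -7.2e-05 for Ppp2r5b in males and 0.00050 for Ppp2r5e in females. Without control males 3 and 6, Ppp2r3c was 0.018 averaged and Ppp2r5a 0.021 between control sexes. Without the females numbered 2, Strn4 was 0.0083 in females, Ppp2r5c 0.00020 averaged and Strn 0.039 between control sexes.

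Counts over all genes moved more. In males (68) they were 399 with DESeq2's Wald test, 188 with voom, 31 with no filter, 18 with the length and GC correction, 16 with that and the block, 7 without control males 3 and 6 and 160 without the females numbered 2. In females (5) they were 9 with the Wald test, 3 with the block, 3 with the correction and block, and 1 with the 2 groups fitted alone. Averaged (205) they were 549, 312 and 113 with the Wald test, voom and no filter, 129 with the correction and 92 with the block added. Between control sexes (98) they were 253 with the Wald test, 40 without control males 3 and 6 and 61 with the 2 groups alone. Between knockout sexes (414) they were 707, 670 and 244 with the Wald test, voom and no filter, and 195 with the correction and block. Leaving out each library in turn gave 4 (without control male 5) to 122 (without control female 6) in males and 96 to 349 averaged, lowest and highest without the same libraries. In females it gave 3 in 12 of the 26 fits, among them that without control male 1, and up to 7 (without knockout female 2). Between control sexes it gave 54 (without control male 3) to 125 (without knockout female 2). Between knockout sexes it gave 163 (without knockout female 4) to 548 (without knockout female 1).

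Leave-one-out values that changed sign ran from -0.014 to 0.023 for Ppp2r5b, -0.0083 to 0.042 for Ppp2r5c and -0.013 to 0.048 for Strn3 in males. In females they ran from -0.025 to 0.018 for Ppp2r5e, -0.090 to 0.0043 for Ppp2r3a and -0.023 to 0.011 for Strn4. Averaged they ran from -0.0018 to 0.061 for Ppp2r3a and -0.025 to 0.0091 for Ppp2r3c, and for the interaction from -0.013 to 0.036 for Ppp2r5d. Between control sexes they ran from -0.034 to 0.022 for Ppp2r5a, -0.024 to 0.031 for Ppp2r5b and -0.17 to 0.039 for Strn, and between knockout sexes from -0.067 to 0.028 for Ppp2r3a. Deviations of same-numbered libraries had a mean r of -0.026 between the male groups and 0.12 between the female groups, where 3 of 6 pairs were over 0.1 and the highest was 0.40. Pairs of other numbers had a mean r of 0.0043 between the male groups and -0.019 between the female groups. Since not every same-numbered pair was over 0.1, the numbers were not taken to pair the mice. This rule cannot tell whether some of the numbers share a batch. Under the block Strn3 between knockout sexes kept its call, with an adjusted p of 0.0471 by edgeR. Merged exon lengths gave, in CPM per kilobase, 11.6, 11.8, 13.4, 12.1 and 6.80 for Ppp2r5a to Ppp2r5e, 22.8 for Ppp2r3a, 3.12 for Ppp2r3c, 12.7 for Strn3 and 10.2 for Strn4. The family shares then were 20.8%, 21.2%, 24.0%, 21.8% and 12.2% for Ppp2r5a to Ppp2r5e and 14.6%, 47.4% and 38.1% for Strn, Strn3 and Strn4. The cause of these changes was not tested, apart from the lengths. The lowest count of any of the 10 in a library was 243, for Ppp2r3c.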
